A study of Mus musculus with 23 samples.

Results

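The clustered histone genes are mainly genes of the replication-dependent histones, which lie in 4 places of the mouse genome named Hist1 to Hist4. Hist4 holds a single gene. Members were every row of the Inv1DelCTCF against Inv1 comparison whose symbol begins with Hist1h, Hist2h, Hist3h or Hist4h, which gave 77 of 34682 rows. They include the processed pseudogene Hist3h2bb-ps, which is counted with H2B. The 77 rows carry 68 different symbols, since 9 symbols are listed in 2 rows, the second marked as a copy. Of the 77, 59 had a mean normalised count above 0 and 18 were listed at 0. Each of the 4 comparisons with wild type lists only 72 to 79 genes, and none of those is a clustered histone gene.

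The series holds 23 RNA-seq libraries in 7 groups, made to study an enhancer cluster near Epha4 that inversions move into a gene-dense region. The groups used here are Inv1DelCTCF, with 2 libraries, and Inv1, with 3 libraries, both of distal forelimb tissue taken at E11.5. Both carry the inversion Inv1. Inv1DelCTCF adds a deletion whose name refers to CTCF and which the labels do not place on the genome. The labels call both genotypes only mutant and name G4 ESC, an embryonic stem cell line, as cell type for the limb samples as well. They call the replicates biological but name no clone, litter or pool, so a p-value here reflects how far these libraries lie apart and no more.

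Histones H2A, H2B, H3 and H4 form the core of the nucleosome around which DNA is wound, and H1 is the linker histone that binds DNA between nucleosomes. The clustered genes are transcribed mainly in S phase, when new chromatin is assembled on replicated DNA, and most have no introns. Most of their mRNAs end in a conserved stem-loop bound by the stem-loop binding protein SLBP in place of a poly(A) tail, although some of these genes also give polyadenylated mRNAs. The limb bud is a dividing embryonic tissue. The labels give the RNA as polyA RNA, so the counts below are those of libraries described as polyadenylated RNA, and mRNAs without a tail were not measured as such.

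The annotated 3′ ends show both kinds of ending, and a few are given because the level of a gene is read against its ending below. Sequences come from GENCODE M21 transcripts (GRCm38), 5′ to 3′, and capitals mark the 16 bases of the histone stem-loop, with 5 bases on each side, for members of each histone type.

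Hist1h1c stem-loop: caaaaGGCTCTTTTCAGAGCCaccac
Hist1h2ae stem-loop: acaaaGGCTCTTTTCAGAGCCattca
Hist1h2bj stem-loop: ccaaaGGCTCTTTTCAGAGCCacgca
Hist1h3c stem-loop: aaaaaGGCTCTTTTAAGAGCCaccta
Hist3h2ba stem-loop: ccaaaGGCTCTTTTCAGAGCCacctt
Hist1h4d stem-loop: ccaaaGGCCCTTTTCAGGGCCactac
Hist1h4i stem-loop: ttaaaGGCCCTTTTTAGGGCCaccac
Hist4h4 stem-loop: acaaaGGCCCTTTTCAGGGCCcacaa

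The next 4 sequences are 30 bases near the transcript end of members with the poly(A) signal AATAAA, which is in capitals.

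Hist2h2be poly(A) signal: gttattattattAATAAAgttaccgattag
Hist1h1c poly(A) signal: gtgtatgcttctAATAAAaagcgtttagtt
Hist1h2ae poly(A) signal: cccagcttctccAATAAAtgggtcaatttt
Hist3h2ba poly(A) signal: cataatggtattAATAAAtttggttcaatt

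A stem-loop was found, on the sense strand, in the longest transcript of 45 of the 68 symbols. The most frequent form, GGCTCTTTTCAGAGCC, was shared by 25 genes of the H1, H2A, H2B and H3 types. The stems differed by histone type: all 33 stem-loops outside H4 began with GGCTC, and none of the 12 stem-loops of H4 genes did. The main H4 form, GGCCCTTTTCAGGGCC, was found in 7 genes, and Hist1h4i, the highest H4 gene, shared the form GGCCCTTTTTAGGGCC with Hist2h4. Among the other 18599 protein-coding genes of the annotation, 15 (0.0806%) held a match. The signal AATAAA stood within the last 50 bases of any transcript for 18 of the 77 rows, copy rows included. Among the other protein-coding genes 59.0% held it there, but only the longest transcript was searched, so the measures are unlike. In the longest transcripts of Hist1h2be, Hist1h2bq and Hist1h2br the last AATAAA began 697, 95 and 295 bases from the end. A match describes the letters of an annotated transcript, and 13 rows have no stem-loop match in a transcript with no annotated 3′ untranslated bases.

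The clustered histone genes took little of the libraries. Their mean normalised counts added up to 705 of 3.02e+07 over all rows, a share of 0.00233%. A member above 0 had a median mean normalised count of 2.87, against 132 for all 21940 rows with a p-value in the authors' deposited table. Only 9 members reached a mean of 10 and 3 a mean of 50, and those 9 held 78.2% of the summed level. A further 50 lay above 0 and under 10, of which 11 lay under 1.

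**Figure D1:**
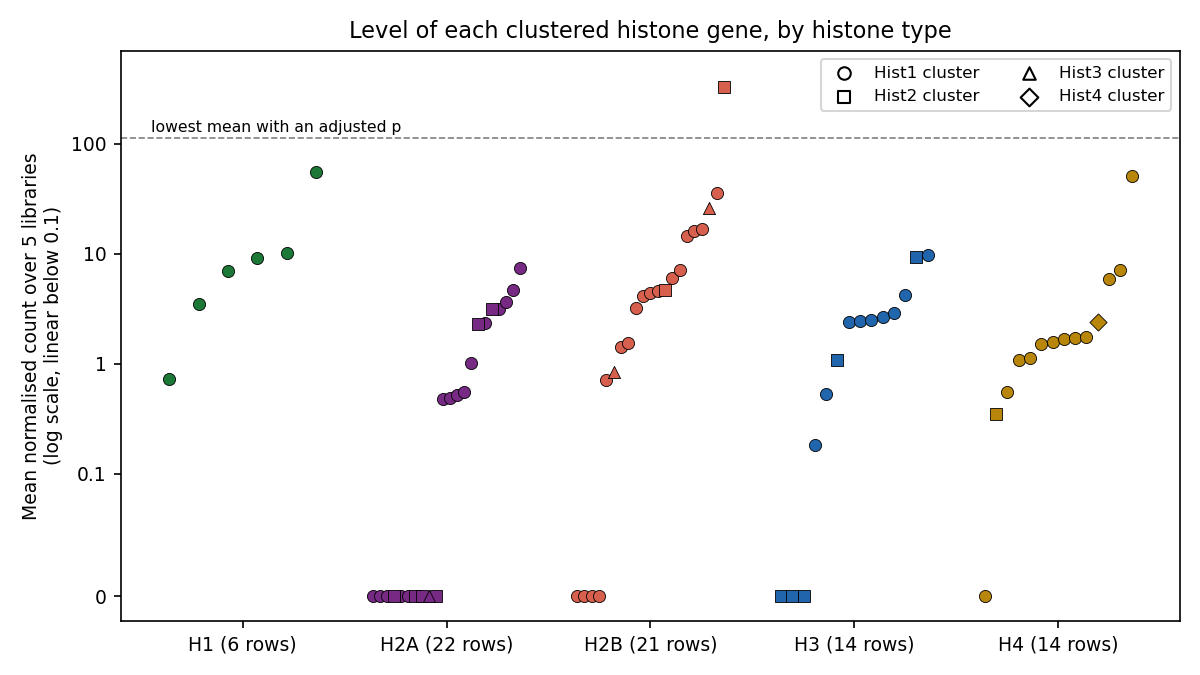
Mean normalised count over the 5 libraries (log scale, linear below 0.1) of each of the 77 clustered histone rows, by histone type, with 1 point per row and a marker shape per cluster. Hist2h2be at 326 stands above the other rows, of which the highest is Hist1h1c at 55.2, and 18 rows lie at 0.

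The means could be split into the whole reads of each library, because a gene with 1 read in all takes 1 of only 5 values, each the worth of a read in 1 library. The libraries are told apart below by depth, since nothing ties them to replicate numbers. The 2 Inv1DelCTCF libraries had size factors of 0.940 and 0.587, and the 3 Inv1 libraries had 1.49, 1.14 and 1.08. One read was thus worth 1.06 and 1.70 normalised counts in Inv1DelCTCF, against 0.671, 0.876 and 0.924 in Inv1. Inv1DelCTCF was the shallower group in both of its libraries. A count of 0, which allows up to 3 reads, allows a normalised count of up to 3.19 and 5.11 in Inv1DelCTCF, against 2.01, 2.63 and 2.77 in Inv1. All members together had 3615 reads over the 5 libraries, and 22 of the 59 members above 0 had 10 or fewer.

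No clustered histone gene passed the test between Inv1DelCTCF and Inv1. The authors' deposited table holds DESeq2's Wald test with an adjusted p for 11218 rows, all with a mean of at least 113, and only 1 member, Hist2h2be, is among them. Its adjusted p missed 0.05, so 0 members were called higher and 0 lower, while 11.7% of the 11218 rows were called, 3.81% higher and 7.89% lower in Inv1DelCTCF. At an unadjusted p under 0.05 stood 1 member, again Hist2h2be, against 14.5% of the 21940 rows with a p and 2.3% of the 10722 rows that have a p and no adjusted p. With the adjustment redone over every row with a p, 0 members were called, the smallest member value was 0.317, and 4.2% of all rows were called.

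The members' errors were wide. In the authors' deposited table the SE of the log2 change ranged from 0.16 to 4.56 over the 59 members, with a median of 1.43, and 5 members had an SE under 0.5. The median member therefore has a 95% interval of 6.95-fold to either side of its estimate, and smaller differences were not detectable for it at this depth. The log2 changes had a median of 0.17, with 36 positive and 23 negative, so 61.0% were positive. All rows with a p had a median log2 change of 3e-05, 50% of them positive, and the rows with a p and no adjusted p had a median of 0.06. Among the 9 members with a mean of at least 10, 5 log2 changes were positive and the median was again 0.17.

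**Figure D2:**
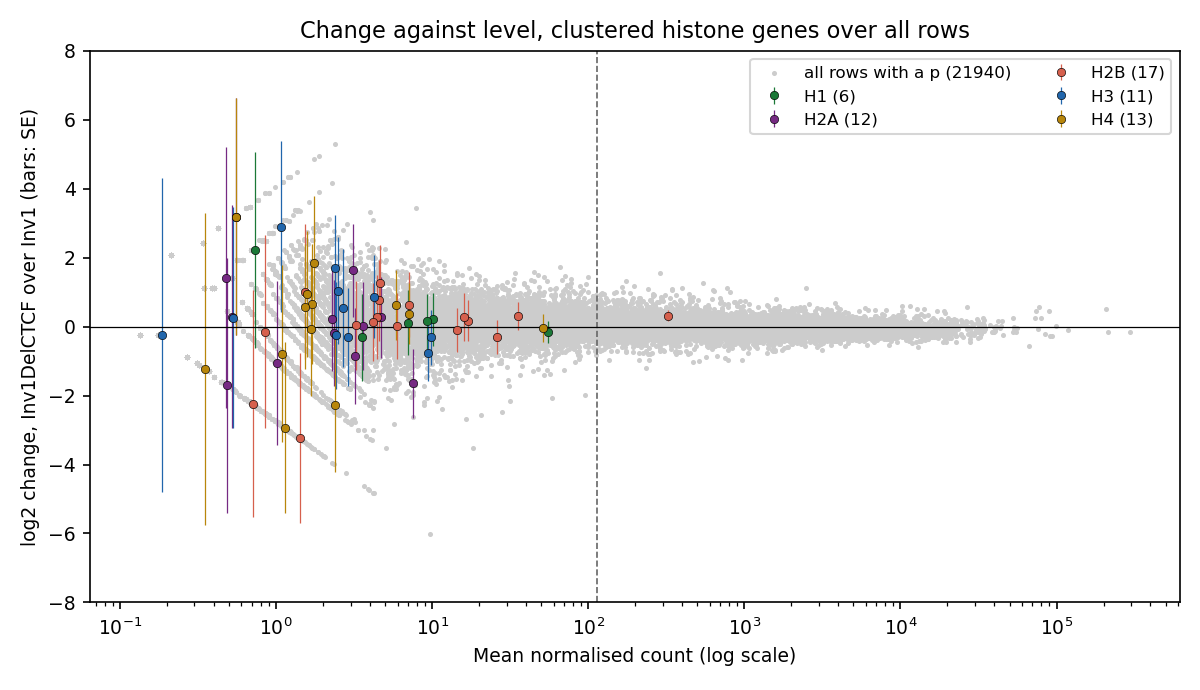
Log2 change, Inv1DelCTCF over Inv1, against the mean normalised count (log scale) for the 59 clustered histone genes above 0, coloured by histone type with bars of 1 SE, over all 21940 rows with a p in grey. The dashed line marks the mean of 113 from which rows have an adjusted p, and Hist2h2be is the only member to its right.

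Hist2h2be, an H2B gene of the Hist2 cluster on chromosome 3, was the highest member on either scale. It had a mean normalised count of 326, 46.2% of the summed level of all members, and 124 per kilobase of annotated transcript. Its normalised counts were 350.1 and 391.8 in Inv1DelCTCF, against 332, 266 and 288 in Inv1, from 329 and 230 reads against 495, 303 and 312 reads. Both Inv1DelCTCF libraries lay above the 3 Inv1 libraries. The groups averaged 371 ± 29.5 normalised counts in Inv1DelCTCF (SD, n = 2) and 295 ± 33.8 in Inv1 (SD, n = 3). For Hist2h2be the authors' deposited table gives a log2 change of 0.32 with an SE of 0.16; DESeq2's p is 0.0429 and the adjusted p is 0.174. That is a 1.25-fold difference with a 95% interval of 1.01 to 1.55. The annotated transcript has no stem-loop match, ends with the AATAAA shown above, and shares none of its 50-base windows with another gene.

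The other H2B genes were the next most covered class. The 21 H2B rows, 17 of them above 0, held 67.1% of the summed level, and 20.9% without Hist2h2be. Hist1h2bc had 39.4 and 40.9 normalised counts in Inv1DelCTCF, against 33.5, 28.05 and 35.1 in Inv1. Its groups did not overlap, but the authors' deposited table gives a log2 change of 0.31 with an SE of 0.40 and a DESeq2 p of 0.433. Hist3h2ba, of the Hist3 cluster on chromosome 11, had 19.2 and 27.3 normalised counts in Inv1DelCTCF, against 32.2, 28.05 and 24.0 in Inv1. Here the shallower Inv1DelCTCF library lay within the Inv1 range and the deeper one below it, and the authors' deposited table gives a log2 change of -0.31 with an SE of 0.48.

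Hist1h2be had 22.3 and 13.6 normalised counts in Inv1DelCTCF, against 18.1, 16.7 and 13.9 in Inv1, so its Inv1DelCTCF libraries lay on either side of the Inv1 range. Hist1h2bj had 7.45 and 29.0 in Inv1DelCTCF, against 14.8, 16.7 and 12.02 in Inv1. Its 2 Inv1DelCTCF libraries enclosed all 3 Inv1 libraries, the shallower one being the high one. Hist1h2bk had 13.8 and 13.6 in Inv1DelCTCF, against 12.1, 17.5 and 14.8 in Inv1, and its groups overlapped. The log2 changes of these 3 genes in the authors' deposited table are 0.17, 0.27 and -0.10, each smaller than its SE of 0.59, 0.69 and 0.63. Hist1h2ba, known as a testis H2B, had 4 reads in all.

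All 6 rows of H1, the linker histone, were above 0, and they held 12.2% of the summed level. Hist1h1c, a linker histone found in most tissues, had a mean normalised count of 55.2 and was the second highest member. It had 55.3 and 47.7 normalised counts in Inv1DelCTCF, against 55.0, 57.0 and 61.0 in Inv1. The groups overlapped by the deeper Inv1DelCTCF library, and the authors' deposited table gives a log2 change of -0.15 with an SE of 0.33. Hist1h1a had 14.9 and 6.81 normalised counts in Inv1DelCTCF, against 10.7, 7.01 and 11.1 in Inv1, and Hist1h1b had 6.38 and 13.6, against 10.7, 7.89 and 7.39. In both genes the 2 Inv1DelCTCF libraries enclosed the Inv1 range. Hist1h1t, the testis linker histone, had 3 reads in all.

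H4 was the next class by level, with 13 of 14 rows above 0 and 11.1% of the summed level. Hist1h4i alone had a mean normalised count of 51.2, and with 70.5 per kilobase it was second to Hist2h2be by length. It had 38.3 and 63.0 normalised counts in Inv1DelCTCF, against 47.6, 69.2 and 37.9 in Inv1. Both groups spread over the same range, and the log2 change in the authors' deposited table is -0.05 with an SE of 0.40. Hist1h4d had 6.38 and 10.2 normalised counts in Inv1DelCTCF, against 5.37, 6.13 and 7.39 in Inv1, and Hist1h4k had 6.38 and 8.52, against 2.68, 3.51 and 8.32. Groups overlapped for both of these H4 genes. Hist4h4, the single gene of the Hist4 cluster, on chromosome 6, had 0 and 1 read in Inv1DelCTCF, against 2, 6 and 4 reads in Inv1. Those 13 reads leave a log2 change of -2.27 with an SE of 1.94 and an unadjusted DESeq2 p of 0.241 in the authors' deposited table.

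H3 and H2A genes had no member with a mean of 10. The 14 H3 rows, 11 above 0, held 5.40% of the summed level, and the highest was Hist1h3c at a mean normalised count of 9.81. It had 8.51 and 8.52 normalised counts in Inv1DelCTCF, against 6.71, 10.5 and 14.8 in Inv1, and the groups overlapped. The second row of Hist2h3c1 followed, with 6.38 and 6.81 normalised counts in Inv1DelCTCF, against 10.1, 8.76 and 14.8 in Inv1. Both of its Inv1DelCTCF libraries lay below Inv1, with a log2 change of -0.76 and an SE of 0.82 in the authors' deposited table, while its first row is listed at 0. Hist1h3a and Hist1h3h, with means of 4.24 and 2.43, overlapped between the groups.

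H2A had the most rows, 22, and the least of the summed level, 4.23%, with 12 rows above 0. Its highest gene was Hist1h2ae, with 3 and 2 reads in Inv1DelCTCF, against 10, 15 and 12 reads in Inv1. In normalised counts these were 3.19 and 3.41, against 6.71, 13.1 and 11.1, and the groups did not overlap. The authors' deposited table gives it a log2 change of -1.64 with an SE of 0.998 and an unadjusted DESeq2 p of 0.1001, second to Hist2h2be among members by p. Hist1h2ag, Hist1h2ab and Hist1h2ai, with means of 4.70, 3.62 and 3.18, had overlapping groups. In Hist2h2ac the Inv1DelCTCF libraries had 5 and 3 reads, against 1, 2 and 3 in Inv1, a gene named after its values were seen because its groups did not overlap once normalised.

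**Figure D3:**
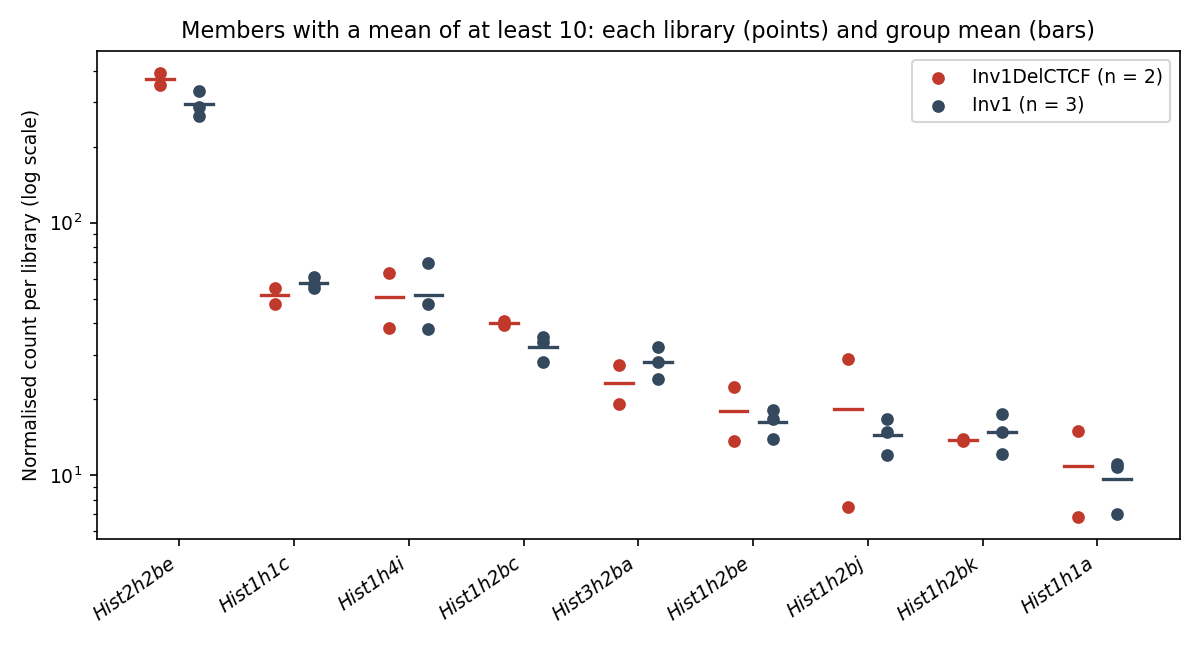
Normalised count per library (log scale) of the 9 clustered histone genes with a mean of at least 10, for Inv1DelCTCF (n = 2) left of Inv1 (n = 3), with 1 point per library and a line at each group's mean. The groups do not overlap for Hist2h2be and Hist1h2bc, and they overlap for the other 7. The share of all rows without overlap was not computed at these levels.

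In all, 12 of the 59 members above 0 had groups that did not overlap, 8 with Inv1DelCTCF above and 4 with it below. Of these 12, 6 had 10 or fewer reads in all, and 10 had a mean under 10. Those 10 are 20% of the 50 members with a mean above 0 and under 10, close to the 18.3% of all 6763 rows in that range whose groups did not overlap. The other members without overlap are Hist2h2be and Hist1h2bc, and no share over all rows was computed for their levels or by direction. The count of 12 and its split by direction are therefore given as description only.

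Summed over members, the groups lay close together. The 77 rows added up to 683 and 838 normalised counts in Inv1DelCTCF, against 676, 654 and 672 in Inv1. The sums did not overlap, but the deeper Inv1DelCTCF library exceeded the highest Inv1 library only slightly. The ratio of group means was 1.14, a log2 ratio of 0.19, and without the shallower Inv1DelCTCF library, of size factor 0.587, the log2 ratio was 0.03. Without Hist2h2be the sums were 333 and 446 in Inv1DelCTCF, against 344, 388 and 384 in Inv1, which overlapped, with a log2 ratio of 0.07 that became -0.16 without that same library.

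By type, only the H2B sum did not overlap, at 483 and 574 normalised counts in Inv1DelCTCF, against 474, 408 and 426 in Inv1. Without Hist2h2be the H2B sum was 133 and 182 in Inv1DelCTCF, against 142, 142 and 138 in Inv1, so the 2 Inv1DelCTCF libraries enclosed Inv1. The H1 sum averaged 84.3 ± 1.18 in Inv1DelCTCF (SD, n = 2) and 86.8 ± 3.67 in Inv1 (SD, n = 3). The H4 sum averaged 80.7 ± 32.8 in Inv1DelCTCF and 76.1 ± 14.5 in Inv1. The H3 sum averaged 39.5 ± 9.19 in Inv1DelCTCF and 37.1 ± 12.8 in Inv1, and the H2A sum 27.6 ± 4.37 in Inv1DelCTCF and 31.3 ± 7.38 in Inv1. For H4, H3 and H2A the difference was smaller than the SD of either group, and for H1 it was smaller than the SD of Inv1 only. The libraries of the 2 groups overlapped in all 4 types.

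**Figure D4:**
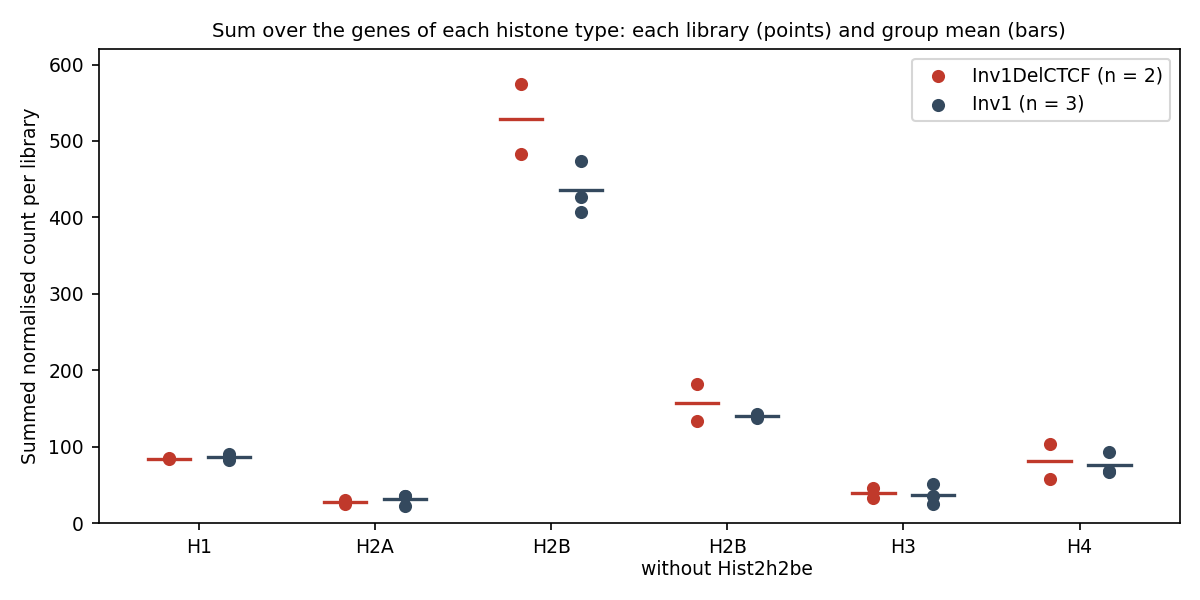
Summed normalised count per library of the clustered histone genes of each type, with H2B also given without Hist2h2be, for Inv1DelCTCF (n = 2) left of Inv1 (n = 3), with 1 point per library and a line at each group's mean. H2B at 483 and 574 in Inv1DelCTCF lies above Inv1, and the groups overlap for H2B without Hist2h2be and for the other types.

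The clusters differed in how many genes carried their level. Hist1, on chromosome 13, held 59 rows, 49 of them above 0, and 46.7% of the summed level. Its sums were 294 and 388 normalised counts in Inv1DelCTCF, against 294, 339 and 329 in Inv1, and they overlapped. Hist2 held 14 rows, 7 above 0, and 49.2% of the summed level, but 2.96% without Hist2h2be. Its sums were 370.3 and 419 normalised counts in Inv1DelCTCF, against 348, 281 and 313 in Inv1, and did not overlap. Without Hist2h2be they were 20.2 and 27.3 in Inv1DelCTCF, against 16.1, 15.8 and 24.96 in Inv1, and overlapped. Hist3 had 2 of 3 rows above 0, Hist3h2ba and the pseudogene Hist3h2bb-ps. It held 3.83% of the summed level, nearly all of it Hist3h2ba, and the single Hist4 row held 0.341%.

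Set against the annotated ending, the summed level was carried by a few genes. Rows with AATAAA in the last 50 bases of any transcript, 18 in number, held 64.0% of the summed level, of which Hist2h2be alone gives 46.2 percentage points. Their sums were 465 and 501 normalised counts in Inv1DelCTCF, against 463, 403 and 422 in Inv1, and did not overlap. The 24 rows with no stem-loop match, Hist2h2be among them, held 58.6%, with 442 and 497 in Inv1DelCTCF, against 412, 337 and 376 in Inv1, which did not overlap either. Both sums hold Hist2h2be, at 350.1 and 391.8 in Inv1DelCTCF, against 332, 266 and 288 in Inv1. With Hist2h2be taken off, the AATAAA rows lay lower in both Inv1DelCTCF libraries than in every Inv1 library. The rows with no stem-loop match still lay higher in both Inv1DelCTCF libraries. Among the 12 AATAAA rows above 0, 5 log2 changes were positive and 7 negative, with a median of -0.23. Among the 19 rows above 0 with no stem-loop match, 12 were positive and 7 negative, with a median of 0.21. The 25 rows with over 100 annotated bases after the stem-loop held 29.4% of the summed level, and the 27 rows with at most 100 such bases held 11.4%. In the set with over 100 bases 21 rows were above 0, with a median mean normalised count of 3.53, and in the other 18, with a median of 2.999. The summed levels of the set with over 100 bases were 175 and 225 normalised counts in Inv1DelCTCF, against 201, 237 and 199 in Inv1, and they overlapped. Those of the set with at most 100 bases were 61.7 and 112 in Inv1DelCTCF, against 59.0, 77.1 and 92.4 in Inv1, and overlapped as well.

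Many clustered histone genes are near copies of each other, so reads could be lost or split between them. Of the 22 rows with at least 80% of their 50-base windows shared with another annotated gene, 13 were listed at 0, against 5 of the other 55. All 13 are rows of symbols listed in 2 rows. The singly listed rows with that share all had reads, namely Hist1h2ah, Hist1h2ai, Hist1h2an, Hist1h2bl, Hist1h2bn, Hist1h3h, Hist1h3i and Hist1h4m. The contrast therefore goes with double listing, and the medians that follow hold the same rows. Rows at 0 shared a median of 93.1% of their windows, and rows above 0 a median of 43.8%. Of the 9 symbols listed in 2 rows, 8 of the first rows and 8 of the copy rows were at 0. In the whole comparison 87.6% of the 1781 copy rows were at 0, and 33.98% of all other rows. The remaining rows at 0 were Hist1h2aa, an H2A known from testis, and Hist3h2a. For rows that share most of their windows a listing at 0 is given as a listing and not as a level, and the values of Hist1h2bk and Hist1h2bj, with 74.2% and 59.4% shared, are uncertain. The part of shared sequence in these levels was not tested. In GRCm38, 29 rows also overlap another annotated gene on either strand, among those with a mean of 10 only Hist1h2be. Whether counting used strand is not given in the sources used here.

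**Figure D5:**
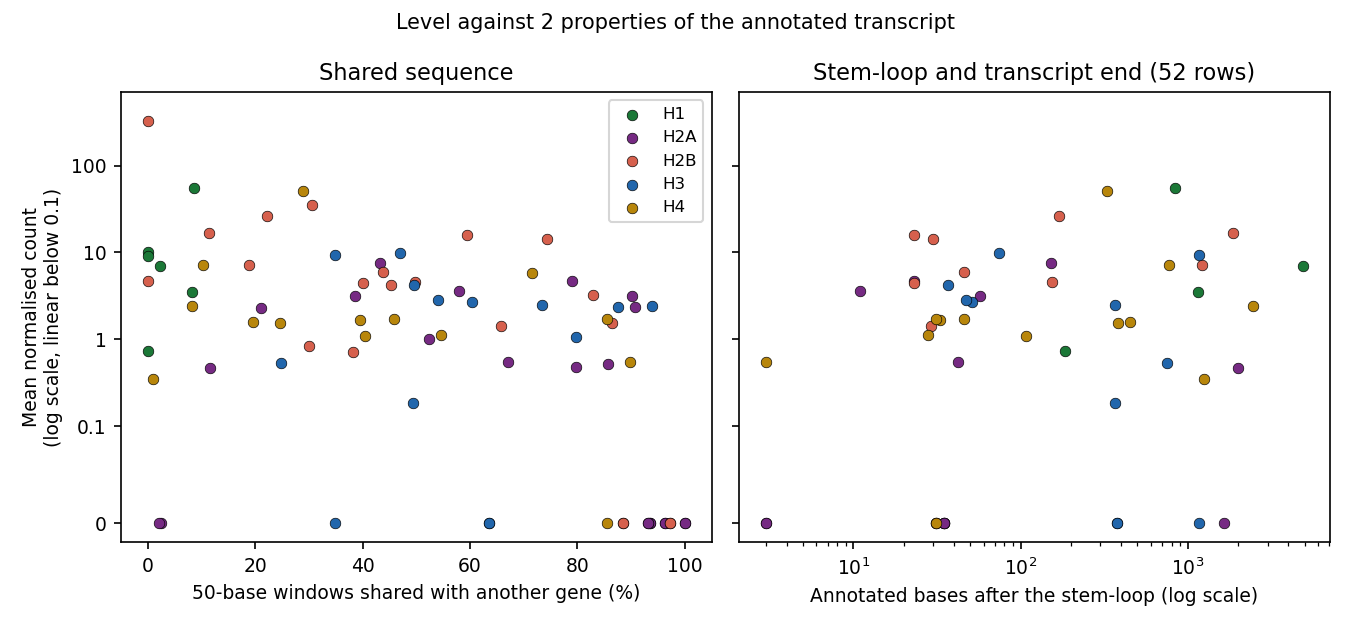
Mean normalised count (log scale, linear below 0.1) of the clustered histone rows, coloured by type, against the percentage of 50-base transcript windows shared with another gene (left) and against the annotated bases after the stem-loop (log scale, right). Hist2h2be at 326 shares 0% of its windows and has no stem-loop match, and 13 of the 22 rows with at least 80% shared lie at 0. Each of those 13 is a row of a symbol listed more than once.

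Histone genes that lie outside the clusters, listed here as replication-independent and mostly polyadenylated, spanned a wide range of counts. That label was not checked for each gene, H2afx among them. Per kilobase, 8 of the 12 listed genes lay above Hist2h2be and 4 below, with H2afz, listed at 0, and H3f3b among the 4. H1f0, a linker histone of differentiating cells, had 9182 mean normalised counts per kilobase, H2afx 4422 and H3f3a 839, while H3f3b had 25.1, H2afy3 2.49 and Cenpa, the centromeric H3, 1.41, against 124 for Hist2h2be. Of the 12 genes 8 had an adjusted p, and 0 rose and 3 fell. For this list and those below, 3.81% of all 11218 rows with an adjusted p were called higher and 7.89% lower. In the authors' deposited table these are H2afx, the H2A variant phosphorylated at DNA breaks, with a log2 change of -0.54 (DESeq2 adjusted p = 2e-05), the macroH2A gene H2afy with -0.21 (adjusted p = 0.00959) and the linker histone gene H1fx with -0.96 (adjusted p = 0.0364). H2afz, which encodes the variant H2A.Z, is listed at 0. Windows shared with other genes were not computed for these 12 genes. The 0 of H2afz is therefore given as a listing and not as a level, and low values such as that of H3f3b are uncertain. The median log2 change of the 8 was -0.14, against -0.01 for all rows with an adjusted p.

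Of the 14 factors of histone mRNA 3′ end processing and turnover, all with an adjusted p, 0 rose and 1 fell. That one was Sympk, a scaffold of the cleavage complex, with a log2 change of -0.27 and a DESeq2 adjusted p of 0.0124 in the authors' deposited table. Slbp, which encodes the protein that binds the stem-loop, has a log2 change of 0.13 with an SE of 0.07 and an adjusted p of 0.219 there. Of 9 genes of histone gene transcription and its cell cycle control, 0 rose and 2 fell, the E2F factor gene E2f4 (log2 change -0.33, adjusted p = 0.00227) and Pou2f1, which encodes Oct1 and acts on H2B promoters (-0.27, adjusted p = 0.0258), in the authors' deposited table. Npat, which encodes the coactivator of the histone clusters, has a log2 change of 0.07 and an adjusted p of 0.579 in the authors' deposited table.

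Of 15 histone chaperone genes 1 rose and 2 fell in the authors' deposited table, namely Atrx (log2 change 0.24, adjusted p = 0.0075), Chaf1b, a subunit of the assembly factor CAF-1 (-0.36, adjusted p = 0.00875), and Hira (-0.20, adjusted p = 0.0375). Of 11 S phase genes 1 rose and 2 fell, with log2 changes in the authors' deposited table of 0.22 for the primase gene Prim1, -0.23 for the thymidine kinase gene Tk1 and -0.30 for the replication helicase gene Gins2. Of 8 mitosis genes 1 fell, the kinase gene Plk1, with a log2 change of -0.23 in the authors' deposited table. The median log2 changes of these 3 lists were -0.08, -0.10 and 0.02, against -0.01 for all rows with an adjusted p.

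RNAs listed as lacking a poly(A) tail had uneven counts. Of 13 listed, 8 were in the comparison and 6 of those had a mean of at most 6.93, while Malat1 and Rn45s had means of 4402 and 14708. Among the low ones, Rnu11, Rnu12, Rmrp, Rpph1 and Terc are annotated at 134, 151, 281, 319 and 423 bases. Neat1, the highest of the low ones, is annotated at 20771 bases, so low counts were not confined to short RNAs. Malat1 rose, with a log2 change of 0.41 and a DESeq2 adjusted p of 0.000669 in the authors' deposited table. The part of RNA selection in the members' levels was not tested.

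Marker genes of the tissue were present, with Hoxd13 and Prrx1 of the distal limb mesenchyme at means of 19242 and 25893 normalised counts. Some marker genes were called as well, read against 3.81% of rows called higher and 7.89% called lower. Of 6 surface ectoderm genes 0 rose and 4 fell, and their summed level was 8066 in Inv1DelCTCF, against 9870 in Inv1, rebuilt from the means and changes. Called genes in the other lists were 0 higher and 2 lower of 6 erythroid, 0 and 1 of 5 endothelial and 0 and 2 of 8 distal mesenchyme genes, and none of 3 macrophage, 4 muscle precursor and 2 nerve genes by DESeq2. At an unadjusted p under 0.05 those last 3 lists had 2, 0 and 1 genes. In whole tissue, fewer cells of a type and less RNA per cell cannot be told apart, and the part of cell makeup in the members' values was not tested.

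Log2 changes also went with base composition, with a Spearman rho of -0.52 against transcript GC content over 10542 rows, given as a description. The members' median GC content was 58.3%, against 49.7% for those rows. With the trend subtracted, 0 members were called, where only Hist2h2be has an adjusted p. Hist2h2be had a log2 change of 0.27 with an adjusted p of 0.387. Of the 10542 rows fitted, 386 were called after the trend. As deposited, 1312 were called, but of the larger set of 11218 rows with an adjusted p. Calls of the listed genes and marker genes above are as deposited, without the trend subtracted, and may differ after it.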

How the data were processed

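RNA from 23 mouse libraries was sequenced, and the values used here are of 2 Inv1DelCTCF and 3 Inv1 libraries. Alignment with STAR, testing with DESeq2 and the build mm9 are named in the submitters' processing notes; versions, annotation and counting are not given in the sources used here. Per the file headers, the authors deposited a mean normalised count (a signal over all libraries of their fit), a log2 fold change with its SE, a Wald score, a p-value and an adjusted p-value. The adjusted p is left empty below a mean of 113, a filter on low counts, and stays empty here.

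The following was computed in Python 3.11.15 (SciPy 1.17.1, numpy 2.4.6, pandas 2.3.3; figures with matplotlib 3.10.9). Genes with 1 read in all take 5 mean values. Of these, 3 have a positive deposited change and 2 a negative one, which matches 3 Inv1 and 2 Inv1DelCTCF libraries, so the deposited change runs Inv1 over Inv1DelCTCF and its sign was turned here. Means were then split into whole reads per library, a step chosen after seeing the data; these reads are inferred here and are not values from the authors. All 4752 rows with a mean above 0 and under 3 had exactly 1 solution. Over 137 genes with means of 5 to 40 the split gave log2 changes within a median of 0.0197 of the deposited ones. For Hist2h2be, above the levels of that check, the search was bounded by the group levels that the deposited mean and change imply, and gave 1 solution within those bounds; its reads, and the sums that hold it, rest on that. The split, bounded and not, and the trend fit were tested on simulated data. Fold intervals come from the SE the authors deposited, which includes the spread between libraries, floors cover counting error only, and depth is the size factor given in the report.

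Genes were named by a rule: called members, the 3 highest members of each type by mean and per kilobase, the 5 highest and 5 lowest log2 changes among members with a mean of at least 10, the highest member of the Hist2, Hist3 and Hist4 clusters, and called genes of each list. Members and lists were chosen with earlier results of these data known. Lengths, 3′ ends, shared windows and GC content are of GENCODE M21, which may differ from the authors' annotation on mm9, so levels per kilobase are approximate. All 68 symbols were matched, and the GC trend used 94.0% of rows with an adjusted p. No coordinates are given.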

Additional observations from a re-analysis of the deposited data

How the results depend on the processing

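The count of clustered histone genes called was 0 higher and 0 lower at an adjusted p limit of 0.1, with the adjustment over every row, and after the median or the GC and length trend was subtracted. Only the adjustment over every row could have called a member other than Hist2h2be, the only member with a deposited adjusted p. The 0.1 limit was settled in advance by its deposited DESeq2 adjusted p of 0.174. A limit of 0.01, minimum means of 10 and 50 and a minimum log2 change of 0.5 can only lower a count that is 0, so they say nothing about stability. The median log2 change of 0.17 was 0.17 at a mean of at least 10, 0.19 after the median and 0.27 after the trend was subtracted, but -0.049 at a mean of at least 50, where 3 members remain. Leaving out each library in turn, an alternative chosen after seeing the data, moved the log2 ratio of summed normalised counts over 0.034 to 0.33 for all members and -0.16 to 0.26 without Hist2h2be. Both lowest values come without the shallower Inv1DelCTCF library. The 21 named members were each run under the median, the trend and the adjustment over every row; of the 63 values 23 have an adjusted p, of which 0 passed 0.05, and 40 have none. Signs changed for 3 members after the trend, Hist1h2bk, Hist1h3h and Hist1h4i, and for 0 after the median. Hist2h2be had an adjusted p of 0.153 after the median and 0.387 after the trend. No paired analysis was possible because the split reads carry no replicate numbers and the authors' fit gives no block. Of the 59 members above 0, 22 have 10 or fewer reads in all. The cause of these shifts was not tested.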
